A study of Mus musculus with 5 samples.

Results

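The Wnt pathway genes described here are 48 of the 15180 genes measured in fibroblasts sorted from mouse pancreatic tumours. They were taken by symbol: the Wnt ligands, the Frizzled receptors (Fzd), the R-spondins (Rspo) and their receptors Lgr4, Lgr5 and Lgr6, and 20 named genes for ligand secretion, co-receptors, nuclear factors and feedback inhibitors. Wnt proteins are lipid-modified signals that act over short distances. When a ligand joins a Frizzled receptor to the co-receptors Lrp5 or Lrp6, the protein β-catenin escapes breakdown, enters the nucleus and acts with TCF and LEF factors. Their targets include inhibitors of the pathway itself, so the level of genes such as Axin2 is widely used as a readout of Wnt activity. Other ligands, such as Wnt5a, act mainly through Ror and Ryk receptors without β-catenin.

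Fibroblasts were sorted from KPC tumours, KPC being a widely used genetic mouse model of pancreatic ductal cancer. LDE225 (sonidegib), an inhibitor of the Hedgehog pathway protein Smoothened, was dosed orally over 14 days to mice that already bore tumours (2 libraries, LDE225 1 and 2), or vehicle was given in its place (3 libraries, vehicle 1, 2 and 3). All 5 samples were live cells that carried podoplanin (PDPN) and lacked CD45, EpCAM and E-cadherin. The labels give no strain, age, Cre driver or number of mice per library. Every tumour carried the same named model, and the drug reached the whole animal, so an effect on fibroblasts alone is not separated from effects through other cells. The comparison of LDE225 with vehicle asks what Hedgehog inhibition does to these fibroblasts.

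Values are read counts divided by a size factor per library ("normalised read counts"). Whole reads recovered from them came to between 13671817 and 14083280.0 in the LDE225 libraries and between 7578822 and 11194991 in the vehicle libraries. Gli1, the standard readout of Hedgehog signalling, had 22.5 and 14.4 normalised read counts with LDE225, against 315, 463 and 264 with vehicle (limma adjusted p = 0.0355). That call was lost in edgeR (adjusted p = 0.0552) and when any library but vehicle 2 was left out. Ptch1, a second Hedgehog target, had 179 and 207, against 459, 1079.5 and 526 (limma adjusted p = 0.159, DESeq2 adjusted p = 0.000914). All 8 fibroblast markers were detected in every library, with Col1a1 at 375001 and 377862 with LDE225 and between 200497 and 440668 with vehicle. The lowest of them, Fap, had 529 and 533 with LDE225, against 233, 1000.4 and 281 with vehicle. For 3 of the 8, both LDE225 libraries lay above every vehicle library, beside 16.6% of all genes tested. These were Lum (9800 and 10039, against 2301, 2049 and 5633), Dcn (41128 and 44495, against 29291, 10780 and 22175) and Pdpn. The other fibroblast markers overlapped. Markers of other cells were detected as well. The 11 carcinoma markers summed to 6517 and 2472 with LDE225, against 7297 to 7410.1 with vehicle; the 5 lymphatic endothelial markers to 746 and 1008, against 279 to 1596; the 7 blood endothelial markers to 835 and 1197, against 450.0 to 1840.1. The 6 mesothelial markers summed to 4571 and 4131, against 5136 to 12216, the 9 pericyte and smooth muscle markers to 2560.3 and 5173, against 3571 to 6871, and the 8 leukocyte markers to 544 and 840.1, against 342 to 920.1. Of 4 Schwann cell markers 3 were listed and summed to 36.2 and 22.8, against 0 to 20.3, with Sox10 at 0 in every vehicle library; the 4 acinar markers summed to 85.2 and 251, against 81.1 to 447. Of the leukocyte markers, Cd3e was at 0 in LDE225 1, vehicle 2 and vehicle 3. limma called 0 genes of these lists. DESeq2 called 1 of 8 fibroblast markers higher (Lum, adjusted p = 0.0129). It called 3 of 11 carcinoma, 3 of 6 mesothelial and 1 of 9 pericyte markers lower with LDE225. Krt19 is on both the carcinoma and the mesothelial list and is counted in each. Over all genes tested, DESeq2 called 2.28% higher and 1.74% lower. Among the libraries, vehicle 2 was the lowest of the 5 for 22 of the 48 Wnt genes. Bulk values cannot tell fewer cells of a type from less RNA per cell.

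The clearest difference lay in the feedback inhibitors. Notum, Axin2, Nkd2 and Apcdd1 were higher in both LDE225 libraries than in every vehicle library, by 1.86 to 4.45 times on group means, whereas Nkd1 and Axin1 overlapped between the groups. The 6 feedback genes also varied among the vehicle libraries, with a median log2 difference of 1.13 between vehicle 1 and vehicle 2. It was 0.80 between vehicle 3 and vehicle 2 and 0.26 between vehicle 1 and vehicle 3. Between treatments their median log2 fold change was 1.26, and 1.01 without vehicle 2. Most ligands, receptors and nuclear factors differed little or varied as much among the vehicle libraries as between treatments. None of the 48 genes passed limma at a Benjamini-Hochberg adjusted p under 0.05, adjusted over the 13183 genes in the test (smallest 0.224, Apcdd1), where 0.0228% of all genes passed as higher and 0.00759% as lower. At an unadjusted p under 0.05 there were 6 higher and 2 lower. These are 12.5% and 4.17% of the members, beside 6.92% and 5.71% of all genes tested. With whole reads recovered from the values, edgeR's quasi-likelihood test also called 0 of the 48, beside 0.0152% of all genes called higher and 0.0% called lower (6 and 2 of the 48 had an unadjusted p under 0.05). DESeq2 on the same reads called 1, Nkd2, as higher, where it called 2.28% of all genes as higher and 1.74% as lower.

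Both LDE225 libraries lay above every vehicle library for 13 of the 48 (27.1%), beside 16.6% of all genes tested. They lay below every vehicle library for 3 (6.25%), beside 15.2% of all genes. Positive log2 fold changes were found for 33 of 48, beside 50.4% of all genes tested. The median log2 fold change was 0.21, against 0.003 over all genes. When every library was scaled to the same total, the median of all genes moved to -0.13 and that of the Wnt genes to 0.082, so both moved down by about the same amount.

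**Figure D1:**
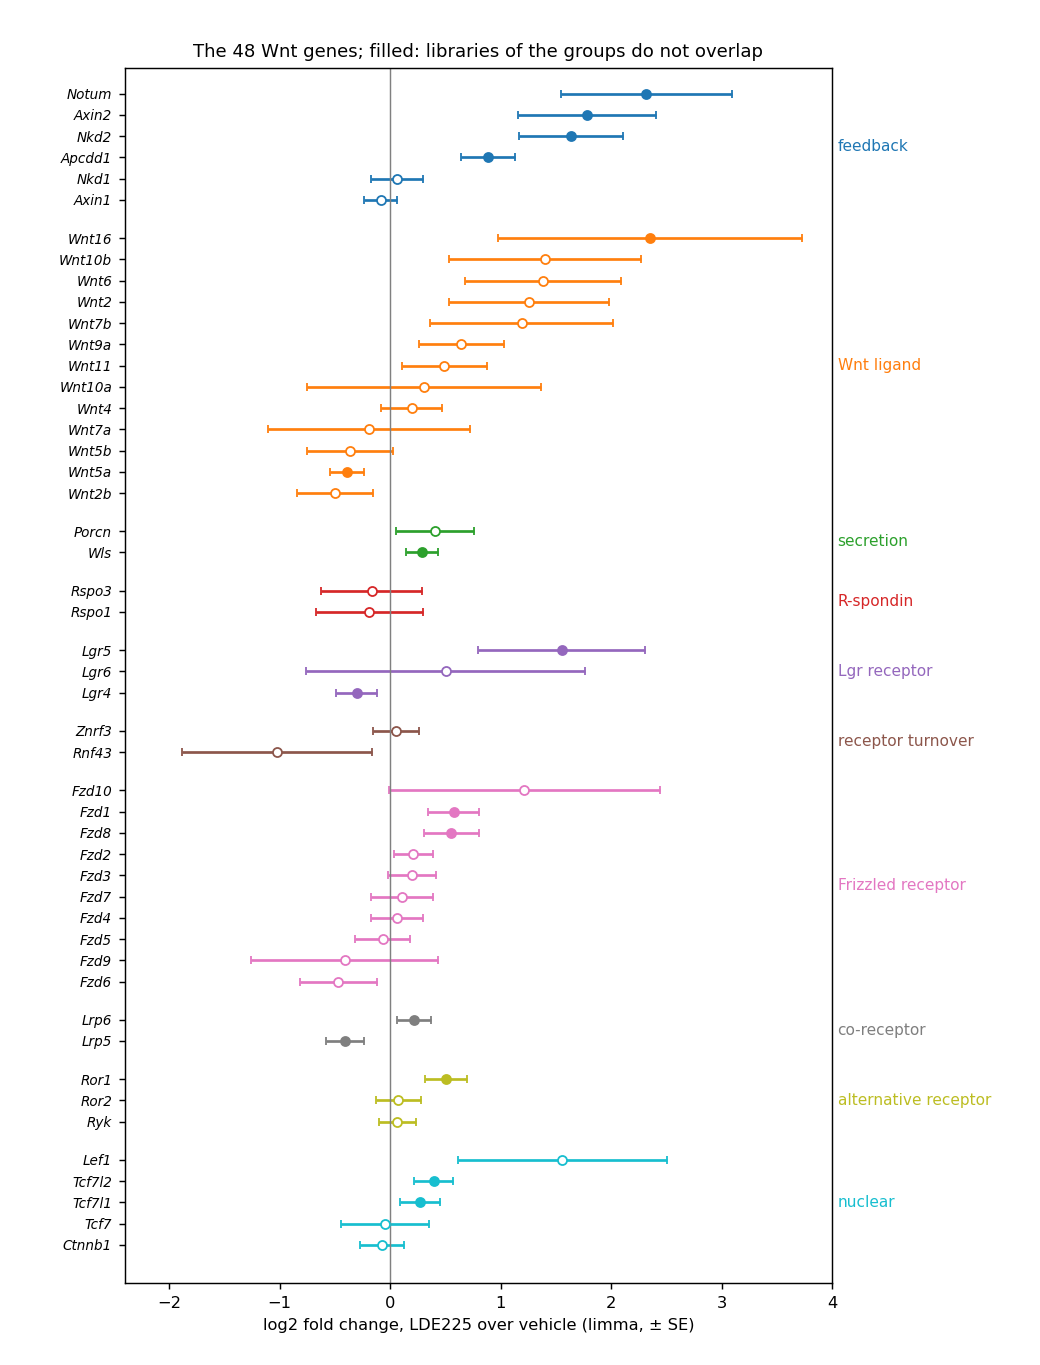
Log2 fold change of each of the 48 Wnt genes, LDE225 over vehicle, from limma on log2(value + 1), with its SE, grouped by role; filled points mark genes whose libraries do not overlap between the groups (13 higher, 3 lower). Notum, Axin2 and Nkd2 stand between 1.64 and 2.32, and low genes such as Wnt16, Lgr6 and Fzd10 carry wide errors.

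Feedback genes are described first. Axin2, a scaffold of the β-catenin destruction complex that β-catenin itself induces, had 824 and 667 normalised read counts in the LDE225 libraries, against 412, 83.0 and 290.0 in the vehicle libraries. The groups did not overlap, and vehicle 2 was 4.96 times lower than vehicle 1. Its log2 fold change was 1.78 ± 0.63 (SE; limma adjusted p = 0.321), and 1.10 without vehicle 2. Axin2 maps to the plus strand of chromosome 11, between 108920349 and 108950783 (GENCODE M21, GRCm38), with the non-coding gene Gm11670 on the opposite strand. Its relative Axin1, which is made constitutively and does the same work, had 536 and 639 with LDE225 and 607, 658 and 599 with vehicle. The Axin1 values overlapped (log2 fold change -0.08 ± 0.15, limma adjusted p = 0.869), so the Axin genes differed in their pattern across these libraries.

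Nkd2, which binds Dishevelled and dampens the signal, had 1436 and 2608 normalised read counts with LDE225, against 1044, 346 and 667 with vehicle. The 2 LDE225 libraries were both above the vehicle range but differed widely from each other. Nkd2 averaged 2022 ± 829 (SD, n = 2) with LDE225 and 686 ± 349 (SD, n = 3) with vehicle, a log2 fold change of 1.64 ± 0.47 (SE) with a limma adjusted p of 0.248 and a DESeq2 adjusted p of 0.0284. It maps to the minus strand of chromosome 13, between 73818534 and 73847631. The related Nkd1 had 639 and 723 with LDE225 and 763, 477 and 752 with vehicle. Nkd1 therefore lay within the vehicle range in both treated libraries (log2 fold change 0.06 ± 0.24, limma adjusted p = 0.941).

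Notum, a secreted enzyme that inactivates Wnt proteins by removing their lipid, had 51.4 and 94.7 normalised read counts with LDE225, against 29.3, 4.83 and 15.1 with vehicle. These rest on 64 and 112 reads, against 23, 5 and 13. All values were low, the groups were separate, and vehicle 2 was again the lowest (log2 fold change 2.32 ± 0.77, limma adjusted p = 0.299). Notum maps to the minus strand of chromosome 11, between 120653788 and 120661175 and overlaps the non-coding Notumos on the other strand; the strand setting of the counting is not given in the sources used here, so reads of both cannot be told apart. Apcdd1, a membrane protein that blocks Wnt binding to its receptors, had 137 and 128 with LDE225 and 63.7, 74.4 and 75.7 with vehicle. Of the 4 feedback genes with separate groups, Apcdd1 had the closest vehicle replicates. It averaged 133 ± 5.73 (SD, n = 2) with LDE225 and 71.3 ± 6.56 (SD, n = 3) with vehicle, and its log2 fold change of 0.89 ± 0.24 stayed between 0.81 and 0.93 when any single library was left out (limma adjusted p = 0.224). Its values do not put vehicle 2 lowest, unlike those of Axin2, Nkd2 and Notum.

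Divided by the length of their exons, the 6 feedback genes summed to 759 and 1036 normalised read counts per kb with LDE225, against 634, 371 and 525 with vehicle. The sum was 1.76 times higher in LDE225 libraries, with no overlap (exact permutation test, two-sided, p = 0.2, the smallest that 2 against 3 libraries allow). Nkd2 made up 39.2% and 52.2% of the sum with LDE225, against 34.1%, 19.3% and 26.4% with vehicle.

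**Figure D2:**
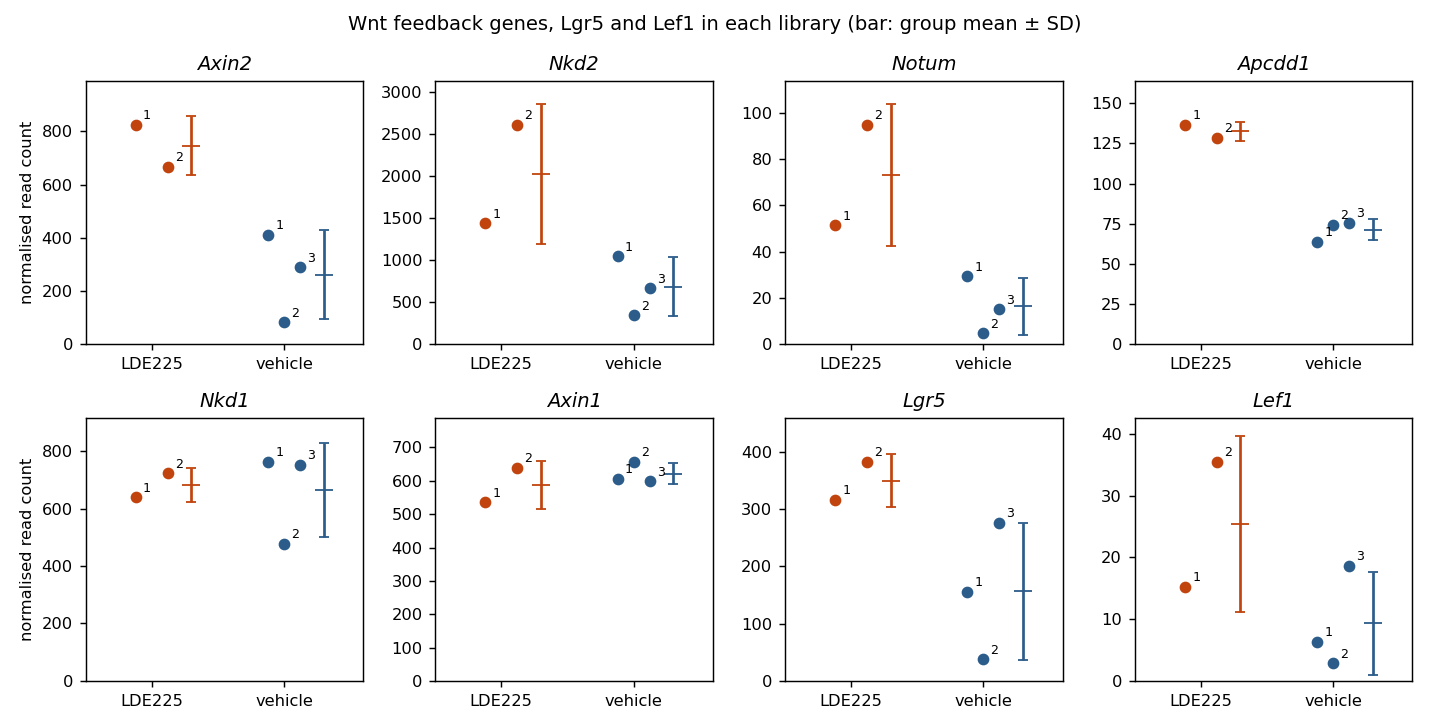
Normalised read counts of the 6 feedback genes, of Lgr5 and of Lef1 in each library, numbered by replicate, with LDE225 on the left and vehicle on the right; bars show the group mean ± SD (n = 2 and n = 3). Axin2, Nkd2, Notum, Apcdd1 and Lgr5 have both LDE225 libraries above all vehicle libraries, and vehicle 2 is the lowest for Axin2, Nkd2, Notum, Nkd1, Lgr5 and Lef1.

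Promoter sequence is given for the feedback genes Axin2 and Nkd2. Both had vehicle 1 as the highest and vehicle 2 as the lowest vehicle library. That order was not particular to them, since Notum and Nkd1 shared it, and shared regulation was not tested. RefSeq promoters (GRCm38.p6, from 250 bases before to 50 bases after the start site) were matched for 32 of the 48 genes, as 42 promoters. They were searched on both strands for the TCF/LEF letters CTTTGAT and CTTTGAA and for the GLI letters GACCACCCA, GLI factors being the end of the Hedgehog pathway. CTTTGAT occurred in 2 of 42 (4.76%), beside 2.66% of the promoters of all genes in the table, CTTTGAA in 0, beside 3.70%, and GACCACCCA in 0, beside 0.193%. The promoters of Axin2 (chr11:108920099-108920398, plus strand) and Nkd2 (chr13:73847582-73847881, minus strand) held none of these letters and are printed in lower case, 5′ to 3′.
Axin2: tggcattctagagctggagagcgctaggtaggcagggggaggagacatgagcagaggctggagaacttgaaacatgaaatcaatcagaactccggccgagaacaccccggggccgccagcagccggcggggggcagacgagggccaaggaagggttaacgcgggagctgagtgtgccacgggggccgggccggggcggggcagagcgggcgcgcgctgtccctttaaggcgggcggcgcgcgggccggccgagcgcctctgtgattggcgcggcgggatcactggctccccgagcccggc
Nkd2: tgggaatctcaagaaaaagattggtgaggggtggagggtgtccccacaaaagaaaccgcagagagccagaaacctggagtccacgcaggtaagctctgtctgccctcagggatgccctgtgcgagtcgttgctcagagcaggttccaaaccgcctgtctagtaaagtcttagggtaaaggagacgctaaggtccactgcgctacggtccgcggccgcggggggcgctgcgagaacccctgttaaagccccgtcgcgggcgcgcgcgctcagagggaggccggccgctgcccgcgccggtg
The windows that do hold CTTTGAT, on either strand, belong to the ligand genes Wnt11 (chr7:98835034-98835094, plus strand) and Wnt5b (chr6:119449424-119449484, minus strand), and capitals mark the match. The match was in 1 of 2 Wnt11 promoters and in 1 of 3 Wnt5b promoters. It starts 51 bases before the start site of that promoter in Wnt11, where it was in the reverse orientation, and 71 bases before in Wnt5b. The Wnt5b promoter with the match lies inside the gene, which spans 119432531 to 119544347 on the minus strand.
Wnt11: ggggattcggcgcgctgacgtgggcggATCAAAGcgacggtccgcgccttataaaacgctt
Wnt5b: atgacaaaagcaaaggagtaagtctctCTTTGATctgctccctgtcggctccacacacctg
Absence from these windows says only that these letters are not there.

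Among the ligands, Wnt5a was lower in both treated libraries, and Wnt2, Wnt9a and Wnt11 were highest in LDE225 2 while LDE225 1 stayed within the vehicle range. Of 19 Wnt genes in GENCODE M21, 13 were analysed here, of which 9 had positive and 4 negative log2 fold changes (median 0.49, and between 0.25, without LDE225 2, and 0.92, without LDE225 1, when a library was left out; 0.20 over the ligands with a mean of at least 50). Wnt5a, the main β-catenin-independent ligand, had 735 and 778 normalised read counts with LDE225, against 999, 1106 and 878 with vehicle. It was the ligand gene with the smallest unadjusted p (0.0418), with a log2 fold change of -0.39 ± 0.15 and a limma adjusted p of 0.373. Wnt5a maps to the plus strand of chromosome 14, between 28504750 and 28527448. Wnt2b, a β-catenin-type ligand of mesenchyme, had 118 and 172, against 176, 153 and 306, and its groups overlapped.

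Wnt4, a ligand of kidney and reproductive tract development, was the most abundant ligand per kb of exon. It had 2589 and 2399.6 normalised read counts with LDE225, against 3150.2, 1983 and 1647 with vehicle, so treated libraries lay inside the vehicle range (log2 fold change 0.20 ± 0.28, limma adjusted p = 0.827). Wnt2, which in the embryo acts in lung and vessel growth, came next per kb. Its values were 525 and 874 with LDE225, against 378, 97.5 and 610.3 with vehicle. Vehicle 3 exceeded LDE225 1, and vehicle 2 lay 6.26 times below vehicle 3, and the log2 fold change of 1.26 ± 0.72 was not called (limma adjusted p = 0.544). Wnt9a had 396 and 691 against 442, 209 and 403, and Wnt11, a ligand of cell movement, had 333 and 604 against 256, 250.1 and 504. Each was highest in LDE225 2 and within the vehicle range in LDE225 1.

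Wnt16 was the only ligand whose treated libraries both exceeded all vehicle libraries, with 36.2 and 9.30 normalised read counts, against 8.92, 0 and 4.66. That is 45 and 11 reads with LDE225 against 7, 0 and 4 with vehicle, and LDE225 2 lay barely above vehicle 1 (log2 fold change 2.35 ± 1.37, limma adjusted p = 0.552; 1.43 without LDE225 1, 1.38 without vehicle 2 and 1.09 with a pseudocount of 10). Wnt7b, often made by epithelium, had 129 in LDE225 1 and 17.7 in LDE225 2, against 24.2, 15.4 and 23.3 with vehicle. One library thus set its mean. The carcinoma marker sum was 6517 in LDE225 1 and 2472 in LDE225 2, against 7404, 7410.1 and 7297 with vehicle. Its markers were split. Epcam (687 and 78.6, against 325, 71.5 and 213), Cldn4 (720 and 79.4, against 220, 115 and 323) and Cldn7 (163 and 35.5, against 117, 93.7 and 89.7) were highest in LDE225 1. Each of the other carcinoma markers was highest in a vehicle library. The part of carcinoma cells in the Wnt7b value was not tested. The Wnt6 values were 33.7 and 98.9, against 39.5, 10.6 and 23.3, those of Wnt10b 32.1 and 51.6, against 11.5, 5.79 and 45.4. In both, vehicle 2 was the lowest library and the groups overlapped. Wnt10a, Wnt7a and Wnt5b had means under 100 in both groups and overlapped as well.

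Summed per kb of exon, the 13 ligands came to 1270 and 1549 with LDE225, against 1379.6, 853 and 1150 with vehicle. The groups overlapped (1.25 times, exact permutation test, two-sided, p = 0.4). Wnt4 made up 48.6% and 36.9% of the sum with LDE225, against 54.4%, 55.4% and 34.1% with vehicle. Wnt2 gave 18.4% and 25.0%, against 12.2%, 5.07% and 23.5%, and Wnt5a 7.40% and 6.42%, against 9.26%, 16.6% and 9.76%. Wnt4 and Wnt2 together therefore gave most of the ligand sum in each library. By group mean per kb, the order was Wnt4, Wnt2, Wnt9a, Wnt11, Wnt5a and Wnt2b with LDE225, and Wnt4, Wnt2, Wnt5a, Wnt9a, Wnt11 and Wnt2b with vehicle. The lowest Wnt4 library (393 per kb) was above the highest Wnt2 library (388). Wnt9a, Wnt11 and Wnt5a overlapped with their neighbours among these 3 genes in both groups. With vehicle, Wnt2 overlapped with these 3 as well. In vehicle 2 it had 43.2 per kb, below Wnt5a (141), Wnt9a (62.7) and Wnt11 (60.5).

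Of the genes for ligand export, Wls, the carrier that takes Wnt proteins to the cell surface, had 3405 and 3449 normalised read counts with LDE225, against 2635, 3022 and 2765 with vehicle. Its libraries were tightly grouped and separate, 3427 ± 31.6 (SD, n = 2) and 2808 ± 197 (SD, n = 3), yet the difference was small (log2 fold change 0.29 ± 0.14, limma adjusted p = 0.469; 0.16 when libraries were scaled to the same total). Porcn, the enzyme that attaches the lipid to Wnt proteins, had 176 and 175, against 210.3, 115 and 95.5, and overlapped.

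**Figure D3:**
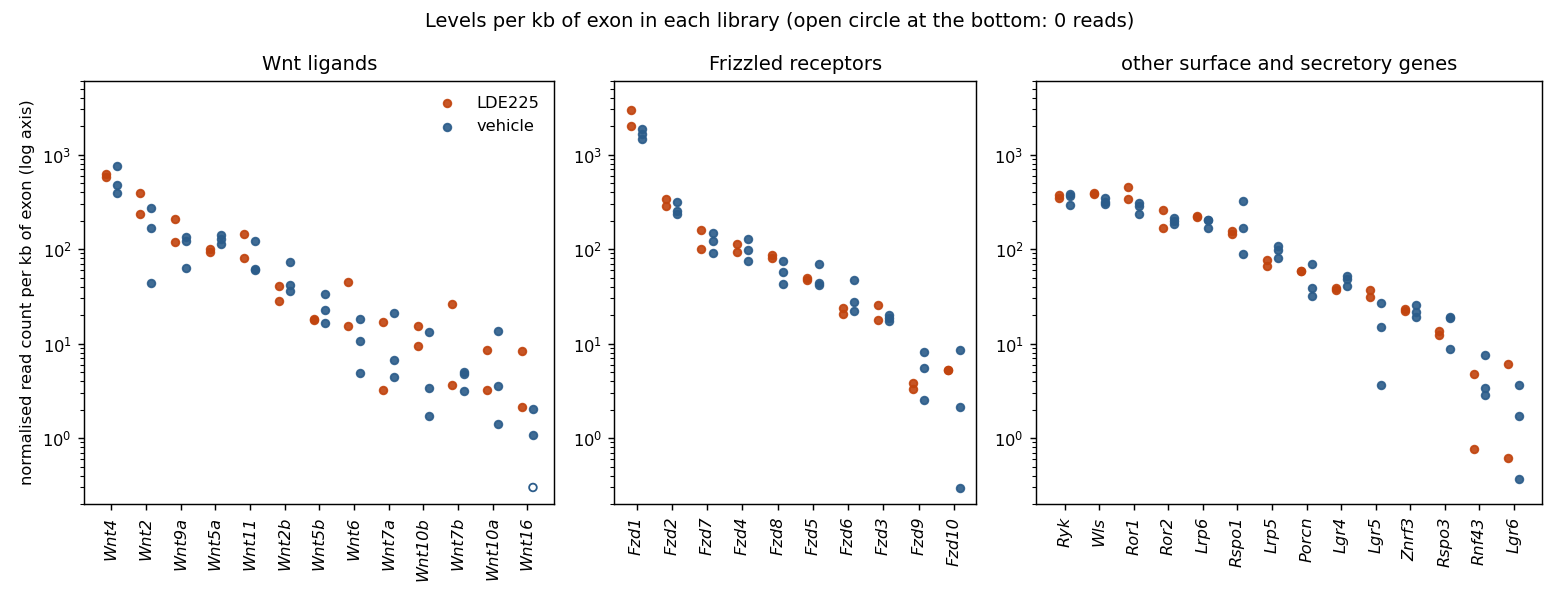
Normalised read counts per kb of exon (log axis) of the Wnt ligands, the Frizzled receptors and other surface and secretory genes in each library, with LDE225 to the left of vehicle at each gene; the open circle is Wnt16 in vehicle 2, with 0 reads. Wnt4 leads the ligands, and Fzd1 stands far above all other Frizzled genes in all 5 libraries.

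All 10 Frizzled genes were measured, and Fzd1 dominated. Fzd1 had 8468 and 12529 normalised read counts with LDE225, against 6146, 6864 and 7832 with vehicle. The groups did not overlap, but LDE225 1 lay much closer to vehicle 3 than to LDE225 2 (log2 fold change 0.58 ± 0.23, limma adjusted p = 0.377; 0.29 without LDE225 2, 0.34 with quantile normalisation). Fzd1 maps to the minus strand of chromosome 5, between 4753839 and 4758035. It held 73.6% and 80.4% of the Frizzled sum per kb with LDE225, against 68.2%, 71.3% and 74.8% with vehicle. The sum itself was 2741 and 3714 per kb, against 2147, 2295 and 2495, or 1.40 times higher with no overlap (exact permutation test, two-sided, p = 0.2, the smallest possible). Its log2 ratio of 0.48 was 0.25 without LDE225 2.

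Fzd2, next per kb, had 1037 and 1227 normalised read counts with LDE225 and 870.4, 1149 and 924 with vehicle, and its groups overlapped. Fzd8 had 511 and 484, against 446, 252 and 344. It was the other Frizzled gene with separate groups, by a small margin over vehicle 1 (log2 fold change 0.56 ± 0.25, limma adjusted p = 0.433; 0.34 without vehicle 2). Fzd3, Fzd4, Fzd5, Fzd6 and Fzd7 overlapped, with log2 fold changes between -0.47 and 0.20. Fzd9 and Fzd10 were near the lower limit, at 5.79 to 18.6 and 0.966 to 28.0 normalised read counts over the 5 libraries.

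The co-receptors of β-catenin signalling lay on opposite sides of their vehicle values. Lrp6 had 2966 and 3053 normalised read counts with LDE225, against 2273, 2766 and 2757 with vehicle. Lrp5 had 746 and 642, against 947, 1039 and 792. Both pairs of groups were separate, Lrp6 above (log2 fold change 0.22 ± 0.16, limma adjusted p = 0.629) and Lrp5 below (-0.41 ± 0.17, limma adjusted p = 0.395). Neither passed, and that of Lrp6 was 0.12 without vehicle 1 and 0.08 when libraries were scaled to the same total. Lrp6 gave 73.9% and 77.2% of their sum per kb with LDE225, against 63.1%, 65.5% and 71.3% with vehicle.

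Of the receptors for β-catenin-independent ligands, Ror1 stood apart and Ror2 and Ryk did not. Ror1, a receptor-type protein for Wnt5a, had 1945 and 2591 normalised read counts with LDE225, against 1364, 1637 and 1778 with vehicle. The groups were separate (log2 fold change 0.50 ± 0.19, limma unadjusted p = 0.0354, adjusted p = 0.355; 0.30 without LDE225 2). Ror1 maps to the plus strand of chromosome 4, between 100095791 and 100444765. Ror2 had 717 and 1096, against 784, 832 and 912, so that LDE225 libraries were the lowest and the highest. Ryk had 1559 and 1695, against 1314, 1639.6 and 1736. The Wnt5a ligand and its Ror1 receptor thus had log2 fold changes of opposite sign.

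R-spondins strengthen Wnt signals by binding Lgr receptors and removing the ligases Znrf3 and Rnf43, which take Frizzled proteins off the cell surface. Of 4 R-spondin genes, 2 were analysed here. Rspo1 had 298 and 278 normalised read counts with LDE225, against 627, 174 and 323 with vehicle. The vehicle libraries thus ranged 3.61-fold while the treated pair agreed closely, and vehicle 1, which was highest for Rspo1, also had the highest mesothelial marker sum (12216); the part of mesothelial cells was not tested. Rspo3 had 37.8 and 42.3, against 26.8, 57.0 and 59.4.

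Lgr5, a stem cell receptor and Wnt target, had 317 and 383 normalised read counts with LDE225, against 155, 37.7 and 276 with vehicle. Groups were separate, vehicle 2 was the lowest by far, and the log2 fold change of 1.56 ± 0.76 (limma adjusted p = 0.465) was 0.75 without vehicle 2. Lgr5 maps to the minus strand of chromosome 10, between 115450311 and 115587780 and overlaps the coding gene A930009A15Rik on the other strand. Lgr4, the more widely expressed relative, had 219 and 227, against 237, 307 and 285, with both treated libraries below vehicle (log2 fold change -0.30 ± 0.19, limma adjusted p = 0.573). Lgr6 was low and irregular, at 41.8 and 4.23, against 2.55, 25.1 and 11.6. Per kb, Lgr4 exceeded Lgr5 in every library, with Lgr5 at 41.6% and 48.8% of the Lgr sum with LDE225, against 27.1%, 6.16% and 34.9% with vehicle. Znrf3 had 183 and 176 against 201, 152 and 170.0, and Rnf43 31.3 and 5.07 against 49.7, 22.2 and 18.6; both overlapped.

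Ctnnb1, which encodes β-catenin, was among the most abundant of the 48 genes and had 9530.4 and 7969 normalised read counts with LDE225, against 10098, 9554 and 7987 with vehicle. Its groups overlapped (log2 fold change -0.07 ± 0.20, limma adjusted p = 0.921). It overlaps Ulk4 on the opposite strand. Tcf7l2, its main partner in many tissues, had 366 and 323, against 289, 254 and 242, and Tcf7l1, often a repressor, 225 and 263, against 200.1, 187 and 218. Both were slightly higher in treated libraries and separate (log2 fold changes 0.39 ± 0.17 and 0.27 ± 0.18, limma adjusted p = 0.418 and 0.614; that of Tcf7l1 was 0.16 without LDE225 2 and 0.14 with the same total per library). Lef1, a factor and target of the pathway, had 15.3 and 35.5, against 6.37, 2.90 and 18.6, with vehicle 3 above LDE225 1. Tcf7 had 73.9 and 60.0, against 90.5, 43.5 and 82.7.

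The vehicle libraries differed strongly from each other in these genes. Vehicle 2 was the lowest of the 5 libraries for 22 of the 48 genes, where it was the lowest for 22.9% of all genes tested. The median absolute difference between the LDE225 libraries was 0.27 on the log2 scale for the Wnt genes, beside 0.23 over all genes tested. It was 0.70 between vehicle 1 and vehicle 2, beside 0.38, 0.53 between vehicle 1 and vehicle 3, beside 0.35, and 0.39 between vehicle 3 and vehicle 2, beside 0.25. By this measure vehicle 1 was the farthest from the other vehicle libraries, for the Wnt genes and for all genes. Vehicle 2 also had the lowest sums of the lymphatic (279) and blood endothelial (450.0) markers and the highest of the pericyte and smooth muscle markers (6871), while its carcinoma sum (7410.1) was like those of vehicle 1 (7404) and vehicle 3 (7297). The pericyte and smooth muscle list was split in vehicle 2. Notch3 (2164), Cspg4 (1641) and Mcam (985) were highest there, and Rgs5 (81.1), Kcnj8 (182) and Abcc9 (188) were lowest there. Des, Myh11 and Cnn1 were neither. Pdpn, the gene of the sorted surface protein, had 4665 and 5183 normalised read counts with LDE225, against 4052, 2123 and 4032 with vehicle, so vehicle 2 was again the lowest. The part of these cell types and of Pdpn level in the Wnt values was not tested. The median log2 fold change of the 6 feedback genes was 1.26 with all libraries and 1.01 without vehicle 2.

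**Figure D4:**
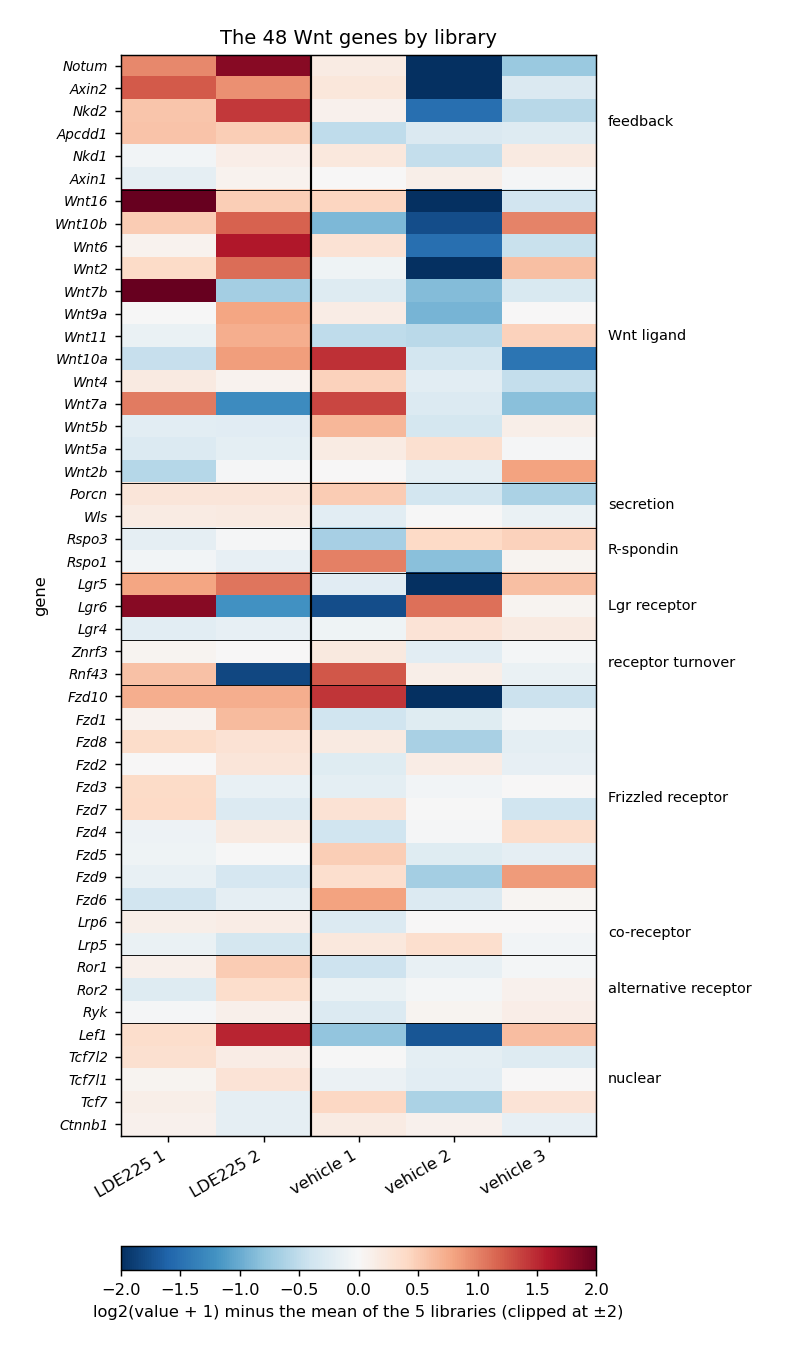
Log2(value + 1) of the 48 Wnt genes in each library minus the mean of the 5 libraries, with LDE225 libraries left of the line and vehicle libraries right, ordered by role and fold change; red is above and blue below the mean. Vehicle 2 is the bluest column, lowest for 22 of the 48 genes, chiefly for feedback genes, several ligands, Lgr5, Fzd10 and Lef1.

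Other genes of the pathway were taken from textbook lists. None passed limma over all genes in any list. Counts in these lists are of genes with an unadjusted p under 0.05, which 6.92% of all genes tested reached as higher and 5.71% as lower; with so few genes a list, shares are coarse. Of 10 secreted antagonists tested, 4 were higher and 1 lower (median log2 fold change 0.66). Sfrp4, a secreted Wnt binder, had 2563 and 2804 normalised read counts with LDE225, against 312, 85.9 and 804 with vehicle, and its relative Sfrp2 had 8659 and 8035, against 1729, 467 and 2714. Both had vehicle 2 lowest, as did Axin2 and Lgr5 (log2 fold changes 3.26 ± 0.82 and 2.68 ± 0.67, limma adjusted p = 0.203 for both). Dkk3 had 3666 and 5193, against 2925, 2833 and 2609, and Sfrp1, the most abundant of those higher, had 17501 and 23142, against 7579, 8139 and 14289.8 (DESeq2 adjusted p = 0.0475). Wif1, a Wnt-binding inhibitor, was the one lower, at 3.21 and 4.23, against 80.3, 24.1 and 16.3 (log2 fold change -2.81 ± 0.85, limma adjusted p = 0.264, DESeq2 adjusted p = 0.0184).

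Among 24 tested target genes outside the 48, which include Dkk2 and Dkk3 of the antagonist list, 4 were higher and 2 lower (median 0.30, and between 0.16, without vehicle 2, and 0.50, without vehicle 3). Tnfrsf19, a receptor induced by β-catenin, had 742 and 899 normalised read counts with LDE225, against 322, 85.0 and 311 with vehicle (log2 fold change 1.99 ± 0.57, limma adjusted p = 0.242, DESeq2 adjusted p = 0.0242). Its vehicle libraries stood in the order of those of Axin2, with vehicle 2 lowest. Tcf4, a helix-loop-helix factor and not the TCF partner of β-catenin, had 1981 and 2564, against 1219.6, 1291 and 1388 (DESeq2 adjusted p = 0.00366). Fgf18, a growth factor, had 208 and 149, against 84.1, 18.3 and 75.7, and Dkk3 is given above. Those lower were Birc5, a mitotic gene (25.7 and 38.0, against 82.8, 66.6 and 112; DESeq2 adjusted p = 0.0463), and Sox9, a chondrocyte and duct factor (262 and 218, against 333, 408 and 474). The 5 proliferation markers, of mitosis and DNA copying, summed to 1011 and 1198 with LDE225, against 2640.2 to 3171 with vehicle, and DESeq2 called 5 of 5 lower. The part of proliferation in the Birc5 value was not tested. The groups overlapped for 2 widely used targets: Ccnd1, the cyclin, had 486 and 232 against 521, 609 and 425, and Myc 670.0 and 1525 against 605, 331 and 922.

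In the cytoplasmic relay, 1 of 23 genes was higher and 1 lower, a count near that over all genes (median -0.002). They were Dact2, a Dishevelled-binding inhibitor, at 139.8 and 182 against 70.1, 30.9 and 32.6, and Ctnnbip1, a β-catenin inhibitor, at 182 and 223 against 261, 351 and 275. Dact2 was called by DESeq2 alone (adjusted p = 0.00859; limma adjusted p = 0.172). Apc, a scaffold of the destruction complex, had 1085 and 986 against 1199, 1041 and 889.8. Of 15 planar polarity genes 2 were higher and 0 lower (median 0.19, but 0.087 without vehicle 3 and 0.053 with the same total per library): Daam1, a formin (831 and 1002, against 443, 402 and 653), and Prickle2 (1117 and 807, against 723, 666 and 502). Of 13 genes listed as surface co-factors, 3 were higher and 1 lower. The list median was 0.14, but 0.001 without vehicle 1, 0.26 without vehicle 2 and 0.007 with the same total per library. Reck, a Wnt7 co-receptor, had 636 and 625, against 335, 454 and 363 (DESeq2 adjusted p = 0.0463), its partner Adgra2 7988 and 8669, against 4484, 5098 and 6635, and the glypican Gpc6 730.3 and 984.7, against 313, 372 and 677. The imprinted gene Mest was the one lower, at 63.5 and 23.7, against 324, 558 and 122 (DESeq2 adjusted p = 0.000848). Of 11 nuclear co-factors, Pygo1, a β-catenin co-activator, was the 1 higher gene (274 and 253, against 153, 219 and 157), and 0 were lower (median 0.10; -0.03 with the same total per library).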

How the data were processed

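RNA from PDPN-positive cells was made into directional, rRNA-depleted paired-end libraries, per the labels' protocols. Each deposited value is a gene's signal in a library: read counts that the authors divided by DESeq2 size factors, not scaled for length. Per the submitters' processing notes, which give neither role nor order, STAR 2.7.3, RSEM 1.2.29, DESeq2 1.22.2 and GRCm38 were used. What annotation release, gene filter or strand setting was used is not given in the sources used here. All values (100%, within 0.001 reads) were whole multiples of their library's smallest positive value, which gave whole reads. Another 3 columns without a header, filled for 9 genes, were not used.

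Groups were compared with limma 3.58.1 (R 4.3.3, empirical Bayes with a trend) on log2(value + 1). The test took in 13183 genes, those averaging 10 or more, and was two-sided, adjusted over all genes, threshold 0.05. For low or variable genes its log2 fold changes differed from those of edgeR in both directions. They were larger for Lgr5 (1.56 against 1.17), Axin2 (1.78 against 1.52) and Fzd10 (1.22 against 0.52). They were smaller for Wnt7b (1.19 against 1.80) and Lgr6 (0.50 against 0.79). All 48 genes passed that filter. edgeR 4.0.16 and DESeq2 1.42.0 ran on recovered reads, and scripts were tested on simulated data. Exon lengths and coordinates come from GENCODE M21, for the 46 members with the same versioned identifier (Tcf7 and Tcf7l2 have none and are left out of sums per kb). The labels do not say whether libraries came from separate mice, so p-values reflect only how these samples scatter, and that scatter may be technical.

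The members and lists were chosen with earlier results of these data known. Values are spelled out for members with an unadjusted p under 0.05, with groups that do not overlap, or leading their role per kb, for up to 4 genes per other list by smallest p, and for further genes picked after their values were seen (Ccnd1, Myc and Apc among them). Alternatives were the pseudocount, the filter, scaling, a replicate block, edgeR, DESeq2 and leaving out each library.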

Additional observations from a re-analysis of the deposited data

How the results depend on the processing

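The count of Wnt genes called was 0 higher and 0 lower in limma and in all alternatives run, except that DESeq2 called 1 higher (Nkd2). Over all genes, limma called 3 higher and 1 lower. With the replicate block it called 16 higher and 5 lower, with edgeR 2 and 0, with DESeq2 300 and 230, and with the same total per library 4 and 2. Leaving out each library in turn gave 0 to 6 higher and 0 to 4 lower; the cause was not tested. The block used the numbers in the titles, which the labels do not tie to a mouse or a batch; same-numbered libraries correlated in their deviations from the group means at 0.132 (number 1) and -0.0174 (number 2). Wnt genes with groups that do not overlap came to 13 higher and 3 lower, and with each library left out in turn to 14 to 21 higher and 4 to 10 lower, since fewer libraries overlap less often. The median log2 fold change of the Wnt genes lay between 0.21 and 0.27 with 1 library left out, and the 13 higher and 3 lower genes with separate groups kept their sign under each alternative that could be fitted for them. For the other members, signs were compared gene by gene only between limma, edgeR and DESeq2. The remaining alternatives were fitted for them too, but their signs were not compared. Wnt10a turned sign, with log2 fold changes of 0.31 in limma, -0.03 in edgeR and -0.05 in DESeq2. Gli1 lost its call in edgeR (adjusted p = 0.0552) and without LDE225 1, LDE225 2, vehicle 1 or vehicle 3, at log2 fold changes between -4.46 and -3.85. Depth limits the 13 genes with a mean under 50, some of which rest on fewer than 10 reads in a library; this covers counting error only.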
